A study of Mus musculus with 12 samples.

Results

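The genes described here are the negative feedback regulators of the ERK pathway and 2 ETS transcription factors that ERK signaling is known to induce: the Sprouty genes *Spry1*, *Spry2* and *Spry4*, the Spred genes *Spred1* and *Spred2*, the dual-specificity phosphatases *Dusp4*, *Dusp5* and *Dusp6*, and the ETS factors *Etv4* and *Etv5*. They were chosen by symbol, with the differences between the genotypes in these libraries already known, so their differences are given as a description, and where the calls of a fit over all genes are counted for them, nothing is read from the count. All 10 were among the 14244 genes with values and among the 12808 whose normalized counts averaged at least 10. Poly(A) RNA of gut epithelial cells was sequenced from 5 wild type (WT) mice and 7 *Chd8L*+/- littermates, males of the C57BL/6 strain at 8 weeks of age, with 1 library per mouse. *Chd8L*+/- mice carry in every tissue 1 disrupted copy of the large isoform of *Chd8*, which encodes a chromatin remodeler, and WT mice carry 2 intact copies. A normalized count is the number of reads on a gene divided by the size factor of its library. The study compared the genotypes to learn how loss of 1 *Chd8L* copy alters transcription in the gut epithelium.

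ERK is the last kinase of a cascade that runs from growth factor receptors through RAS, RAF and MEK, and in intestinal crypts this cascade is known for sustaining the division of stem and progenitor cells. Active ERK switches on genes that shut it down again: Sprouty and Spred proteins act between the receptor and RAF, and the DUSP phosphatases remove phosphate from ERK itself or from related kinases. ETV4 and ETV5 are nuclear effectors of the pathway, and the RNAs of many of these genes are widely used as readouts of ERK activity.

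The libraries held 15691662 to 20761315 reads on genes. The normalized count of *Chd8* itself was 953 ± 85.5 in the 5 WT and 1297 ± 123 in the 7 *Chd8L*+/- libraries (mean ± SD), and since reads were counted over the whole gene, the deleted part cannot be told from the rest and these values do not check the genotype. The epithelial markers were abundant in every library, with *Krt8* between 37024 and 66488 normalized counts. WT replicate 2 stood apart from the other WT libraries: the summed normalized count of 12 genes of dividing cells was 15162 in it and 3325 to 7825 in the others, and that of 8 tuft cell genes was 2572 against 10944 to 24231. The differences that depend on this library are therefore also given without it.

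The starts of 7 of the 10 genes were found in RefSeq (GRCm38.p6), with 8 start sites in all. The 250 bases upstream of each start were searched on both strands for the ETS motifs AGGAAG and CCGGAA, the AP-1 motif TGANTCA, the CREB motif TGACGT and the CArG box bound by serum response factor, all motifs of factors that ERK signaling can reach. No entry was matched for *Spry4*, *Dusp4* and *Etv4*. Windows of 4 genes are printed because the results turn on their RNAs: all 7 mutant libraries were below the WT median in *Spry1* and *Dusp6* and above it in *Spred1*, and *Dusp5* varied with *Dusp6* from mouse to mouse. Each window lies on the plus strand of the chromosome, at chr3:37639697-37639946 for *Spry1*, chr10:99262981-99263230 for *Dusp6*, chr19:53528895-53529108 for *Dusp5* and chr2:117120821-117121070 for *Spred1*, and capitals mark the letters that match a motif.
Spry1: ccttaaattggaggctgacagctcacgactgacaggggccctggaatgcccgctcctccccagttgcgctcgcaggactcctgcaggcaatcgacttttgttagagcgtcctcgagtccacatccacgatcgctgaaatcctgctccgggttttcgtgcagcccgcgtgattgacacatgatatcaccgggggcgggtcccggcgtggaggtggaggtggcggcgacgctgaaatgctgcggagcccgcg
Dusp6: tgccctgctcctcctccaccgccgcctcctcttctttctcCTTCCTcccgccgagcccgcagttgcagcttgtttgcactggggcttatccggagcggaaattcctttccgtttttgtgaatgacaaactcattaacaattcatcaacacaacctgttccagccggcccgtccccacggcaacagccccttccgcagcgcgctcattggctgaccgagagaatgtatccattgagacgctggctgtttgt
Dusp5: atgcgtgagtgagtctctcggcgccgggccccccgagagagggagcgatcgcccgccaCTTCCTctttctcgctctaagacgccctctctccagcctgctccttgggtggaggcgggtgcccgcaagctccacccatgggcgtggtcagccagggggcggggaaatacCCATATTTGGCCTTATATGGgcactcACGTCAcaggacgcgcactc
Spred1: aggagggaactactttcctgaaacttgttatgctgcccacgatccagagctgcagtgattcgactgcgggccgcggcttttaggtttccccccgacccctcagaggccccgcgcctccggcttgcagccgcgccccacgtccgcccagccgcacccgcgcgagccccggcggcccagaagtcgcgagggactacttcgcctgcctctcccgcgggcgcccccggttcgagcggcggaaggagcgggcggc
The *Dusp5* window is printed only to base 214, where an annotated exon of the gene begins. In *Dusp6* the capitals are AGGAAG read from the opposite strand, 210 bases upstream of the start. In *Dusp5* they are, in order, AGGAAG on the opposite strand 192 bases upstream, 2 CArG boxes that adjoin without overlap at 82 and 72 bases, and TGACGT on the opposite strand at 56 bases. The *Spry1* and *Spred1* windows hold none of these letters, which says nothing of the factors. AGGAAG was found in 3 of the 8 windows, those of *Dusp6*, *Spred2* and *Dusp5*, and in 29.5% of 32851 promoter windows of the same length. The CArG box was in 1 of the 8, that of *Dusp5*, and in 1.47% of all windows, while TGACGT was in 2 (*Spred2* and *Dusp5*) and in 6.47%. CCGGAA, held by 12% of windows, and TGANTCA, held by 6.75%, were in 0 of the 8.

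Per length of transcript, *Dusp6* was the most abundant of the 10 genes and *Spry4* the least in both genotypes. The level of *Dusp6* was 45.4 ± 14.3 (SD, n = 5) reads per kilobase of exon, scaled to a fixed total of counted reads (RPKM), in WT libraries, at percentile 92.6 of all genes tested, where the median gene had 3.70. It was followed in WT by *Dusp5* (9.71 ± 2.44), *Spred2* (7.48 ± 1.41), *Spry2* (5.58 ± 0.715) and *Spry1* (3.91 ± 1.59). The lower levels were those of *Dusp4* (2.51 ± 0.359), *Spred1* (1.63 ± 0.731), *Etv4* (0.790 ± 0.527), *Etv5* (0.661 ± 0.516) and *Spry4* (0.296 ± 0.096), the last at percentile 8.74. The 5 WT libraries of *Dusp6*, from 24.0 to 59.5, all lay above those of *Dusp5*, which reached 12.2, whereas every other pair of neighbours in this order overlapped between libraries. In *Chd8L*+/- libraries *Dusp6* still had the highest level (27.2 ± 11.2, n = 7) and *Spry4* the lowest (0.083 ± 0.028), and *Spry1* (2.24 ± 0.548) came to lie beside *Dusp4* (2.27 ± 0.596) and *Spred1* (2.11 ± 0.431).

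The Sprouty genes encode adaptors that are phosphorylated after growth factor stimulation and then restrain the path from receptor to RAF. *Spry4* and *Spry1* were lower in the mutant libraries and *Spry2* was nearly level. *Spry4*, on the minus strand of chromosome 18 (GRCm38, 38586247 to 38601415), had normalized counts of 40.0, 25.4, 22.2, 24.8 and 21.3 in WT replicates 1 to 5, and from 3.14 over a median of 7.47 to 9.50 in the 7 *Chd8L*+/- libraries. Every mutant library lay far below every WT library, so the groups did not overlap. The means were 26.7 ± 7.61 (SD, n = 5) and 6.92 ± 2.11 (SD, n = 7), 3.87-fold higher in WT, and the log2 fold change on the log2(normalized count + 1) scale was -1.83 (standard error 0.32, 95% interval -2.51 to -1.14). The gene rests on few reads, between 3 and 45 per library and 134 in WT and 51 in *Chd8L*+/- libraries in all, and it passed the minimum mean of 10 through the WT group. The groups did not overlap in 1 of the 10 genes, *Spry4*, where 0.515% of all genes tested were apart in either direction and 0.273% in this one. Because the RNA came from mixed cell preparations, fewer cells that express a gene and less RNA per cell cannot be told apart here.

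*Spry1*, on the plus strand of chromosome 3 (37639947 to 37644598), had 165, 134, 255, 387 and 167 normalized counts in WT replicates 1 to 5. The *Chd8L*+/- libraries ranged from 88.7 to 149 with a median of 107. All 7 mutant libraries were below the WT median and 5 were below the lowest WT library, which was WT replicate 2, so that the groups overlapped only through that library. The mean went from 222 ± 103 (SD, n = 5) to 114 ± 23.4 (SD, n = 7), and the log2 fold change was -0.87 (standard error 0.24, 95% interval -1.39 to -0.34), or -1.02 without WT replicate 2. Exons of the antisense gene *Gm42922* overlap *Spry1*, and strand use in the counting is not stated, so reads of the pair cannot be separated. *Spry2* (chromosome 14, 105891947 to 105896819, minus strand) had 252, 215, 205, 235 and 206 in WT and 144 to 254, with a median of 206, in *Chd8L*+/- libraries. These ranges overlapped widely, and the log2 fold change was -0.15 (standard error 0.15, 95% interval -0.48 to 0.17).

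Spred proteins bring the RAS inhibitor neurofibromin to the membrane, and neither of their RNAs was lower by as much as those of *Spry1* and *Spry4*. *Spred1* (chromosome 2, 117121374 to 117182279, plus strand) had 235, 319, 133, 145 and 199 normalized counts in WT replicates 1 to 5, and from 206 over a median of 245 to 306 in *Chd8L*+/- libraries. All 7 mutant libraries were above the WT median, but the highest value of all was that of WT replicate 2. The log2 fold change was 0.34 (standard error 0.20, 95% interval -0.09 to 0.78), and 0.52 without that library. For *Spred2* (chromosome 11, 19924375 to 20024026, plus strand) the WT libraries had 809, 563, 528, 751 and 655, and the *Chd8L*+/- libraries 534 to 813 with a median of 652. Both groups covered about the same range, with means of 661 ± 120 (SD, n = 5) and 653 ± 113 (SD, n = 7) and a log2 fold change of -0.02 (standard error 0.15, 95% interval -0.34 to 0.30).

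Among the phosphatases, *Dusp6* had the largest difference. DUSP6 is the cytoplasmic phosphatase that acts on ERK, DUSP5 its nuclear counterpart, and DUSP4 a nuclear phosphatase that also accepts other MAP kinases. *Dusp6* (chromosome 10, 99263231 to 99267489, plus strand) had 3436, 1281, 2684, 3694 and 2683 normalized counts in WT replicates 1 to 5, and from 831 over a median of 1207 to 2355 in *Chd8L*+/- libraries. All 7 mutant libraries were below the WT median, and WT replicate 2 alone of the WT libraries lay among them. The WT mean of 2756 ± 940 (SD, n = 5) was 1.82-fold higher than the mutant mean of 1515 ± 634 (SD, n = 7), and the log2 fold change was -0.89 (standard error 0.31, 95% interval -1.55 to -0.22), or -1.14 without WT replicate 2.

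*Dusp5* (chromosome 19, 53529109 to 53542431, plus strand) had 458, 247, 465, 616 and 548 in WT and 282 to 562, with a median of 335, in *Chd8L*+/- libraries. WT replicate 2 was the lowest of all 12, and the remaining WT libraries overlapped with the upper mutant ones. Its log2 fold change of -0.27 (standard error 0.24, 95% interval -0.78 to 0.24) became -0.48 without WT replicate 2, and exons of *AC137853.2* on the opposite strand overlap the gene. *Dusp4* (chromosome 8, 34807297 to 34819894, plus strand) had 144, 121, 106, 148 and 138 in WT and from 70.2 over a median of 102 to 141 in *Chd8L*+/- libraries, which overlapped. The log2 fold change of *Dusp4* was -0.29 (standard error 0.18, 95% interval -0.68 to 0.11).

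*Etv4* and *Etv5*, which encode ETS activators of the PEA3 subfamily, varied more between libraries of 1 genotype than between the genotypes. *Etv4* (chromosome 11, 101769742 to 101785371, minus strand) had 27.6, 90.3, 29.2, 48.6 and 32.6 normalized counts in WT replicates 1 to 5, and from 15.7 over a median of 21.1 to 93.8 in *Chd8L*+/- libraries. WT replicate 2 and *Chd8L*+/- replicate 6 held the 2 highest values, and the log2 fold change was -0.58 (standard error 0.45, 95% interval -1.54 to 0.37). *Etv5* (chromosome 16, 22381309 to 22439719, minus strand) had 32.9, 108, 20.2, 57.5 and 32.6 in WT and 36.3 to 113, with a median of 46.7, in *Chd8L*+/- libraries. *Chd8L*+/- replicate 4 was highest and WT replicate 2 next, while all 7 mutant libraries lay above the WT median. The log2 fold change of *Etv5* was 0.35 (standard error 0.39, 95% interval -0.48 to 1.19), and without WT replicate 2 it was 0.69 for *Etv5* and -0.30 for *Etv4*.

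**Figure D1:**
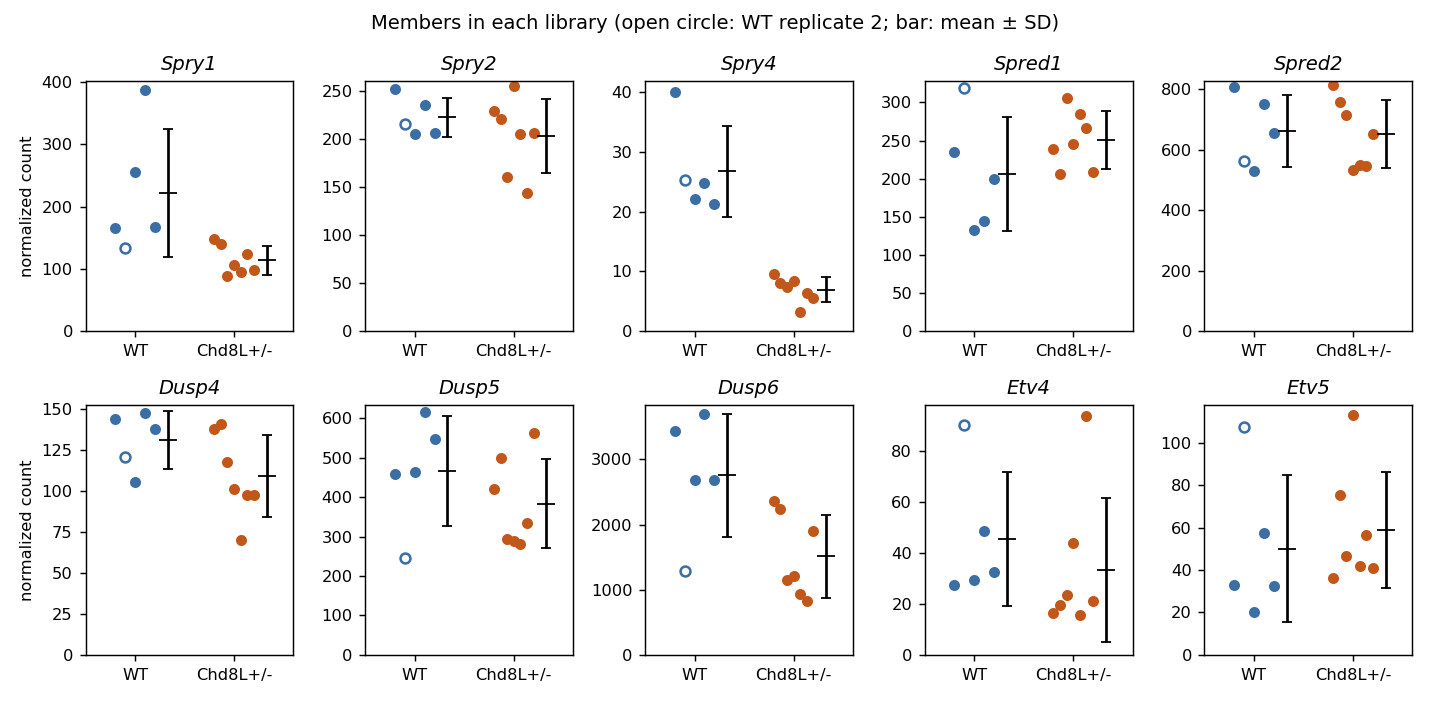
Normalized counts of the 10 genes in each library, 1 panel per gene with a linear axis from 0, WT in blue and *Chd8L*+/- in orange; the open circle is WT replicate 2 and bars are the mean ± SD (n = 5 and n = 7). *Spry4* is the gene whose groups do not overlap, and in *Dusp6* the open circle at 1281 lies among the mutant libraries.

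Of the 10 genes, 8 had a lower and 2 a higher mean log2 value in *Chd8L*+/- libraries, and the median of the 10 log2 fold changes was -0.28, beside 48.6% lower and a median of 0.01 over all genes tested. After Benjamini-Hochberg adjustment (p of at most 0.05), limma called 0 of the 10 genes and 0.0234% of all genes. Before adjustment, 3 of the 10 had a p of at most 0.05 (*Spry1*, *Spry4* and *Dusp6*), beside 24.3% of all genes. On the reads recovered from the normalized counts, edgeR called *Spry4*, beside 0.039% of all genes, and DESeq2 called *Spry1* and *Spry4*, beside 6.44% (4.61% lower and 1.84% higher). With the opening letter of the library names as a block, limma called *Spry4*, beside 3.52% of all genes (2.15% lower and 1.37% higher). With the number that ends the library names as a block, limma called 0 of the 10 and 0% of all genes. All 7 mutant libraries were below the WT median in 3 genes (15.7% of all genes) and above it in 2 (16.2%). With WT replicate 2 left out, 4 of the 10 were called (*Spry1*, *Spry4* and *Dusp6* lower, *Spred1* higher) beside 27.6% of all genes, and 3 were apart (*Spry1*, *Spry4* and *Dusp6*) beside 14.4% (7.71% lower and 6.69% higher). Nothing is read from these counts, as the genes were chosen with this comparison known.

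**Figure D2:**
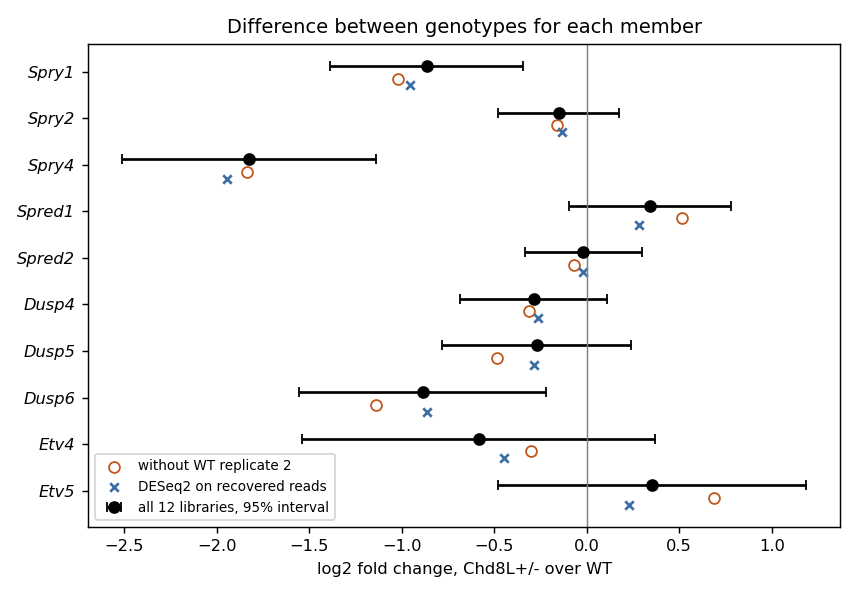
Log2 fold change, *Chd8L*+/- over WT (horizontal axis), for each gene (vertical axis): filled circles with 95% intervals are limma on all 12 libraries, open circles the same without WT replicate 2, and crosses DESeq2 on recovered reads. *Spry4* lies farthest to the left at -1.83, and the intervals of *Spry1*, *Spry4* and *Dusp6* lie wholly below 0.

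The opening letter of the library names splits the mice into sets whose meaning the labels do not give. Letters A, B and C hold both genotypes. Within them the mean log2(normalized count + 1) of the mutant libraries minus that of the WT libraries was -1.88, -2.53 and -1.39 for *Spry4*. As the groups of *Spry4* do not overlap, its sign within a letter was fixed in advance and gives no check. *Spry1* had -0.61, -1.42 and -0.89 and *Dusp6* -0.83, -1.76 and -0.71 in the same order. The groups of both genes overlap only through WT replicate 2, which is in letter A. Their signs within letters B and C were therefore also fixed in advance. Letter D held 1 *Chd8L*+/- library and gave no value, and the sets hold only 1 to 3 libraries per genotype.

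From mouse to mouse, some of the 10 genes varied together. After subtraction of the genotype means from the log2 values, *Dusp5* and *Dusp6* correlated over the 12 libraries with Pearson's r of 0.85 and Spearman's rho of 0.81. With the 2 libraries farthest from the median of *Dusp5* left out, r was 0.79. *Spred2* and *Dusp4* followed with r of 0.82 (rho 0.84), then *Spry4* and *Dusp4* with 0.78 (rho 0.66) and *Spred2* and *Dusp6* with 0.76 (rho 0.67). Without the 2 libraries farthest from the median of the gene named first, these r were 0.76, 0.63 and 0.80 in that order. Negative relations of like size were seen with *Spred1*, where r was -0.79 (rho -0.85) with *Spry1* and -0.78 (rho -0.73) with *Dusp5*. With the 2 libraries farthest in *Spry1* left out the former was -0.83, and with the 2 farthest in *Spred1* left out the latter was -0.78. The other 39 of 45 pairs lay between -0.7 and 0.7, among them *Spry1* with *Spry4* at 0.13 and *Etv4* with *Etv5* at 0.64. Without WT replicate 2, r was 0.76 for *Dusp5* with *Dusp6*, -0.71 for *Spry1* with *Spred1*, -0.59 for *Spred1* with *Dusp5* and 0.49 for *Etv4* with *Etv5*. The points share library depth and cell makeup, and these values are a description of the 12 libraries.

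**Figure D3:**
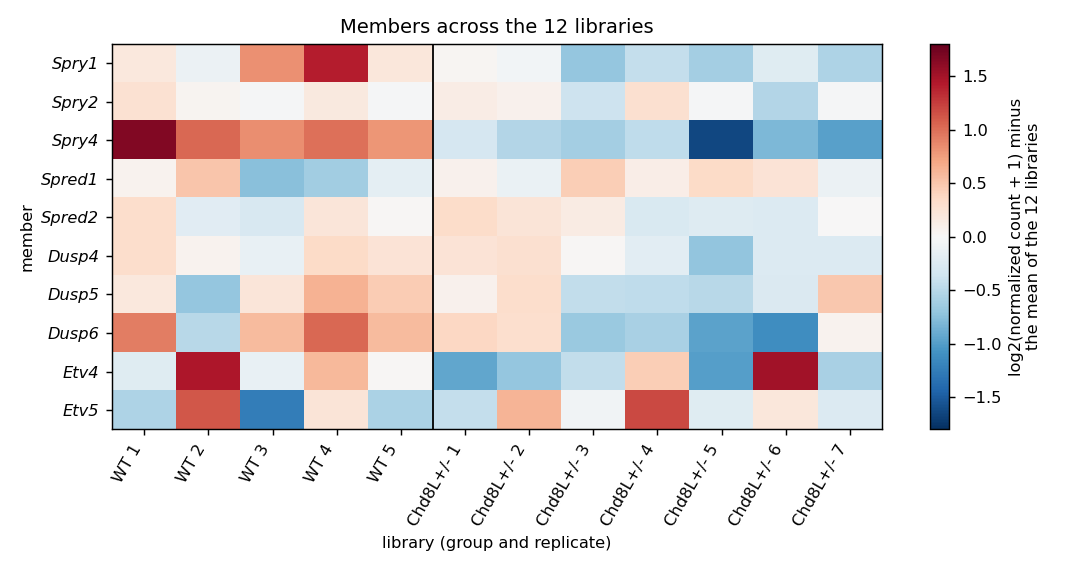
Log2(normalized count + 1) of each gene (vertical axis) in each library (horizontal axis, WT left of the line), minus the gene's mean over the 12 libraries, in red where above it and in blue where below. *Spry4* is red in all 5 WT and blue in all 7 *Chd8L*+/- libraries, and *Etv4* and *Etv5* are deep red in WT replicate 2.

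The genes outside the 10 whose log2 values were most like the mean log2 value of the 10 over the 12 libraries were *Siah2* (Pearson's r 0.91), *Nudt9* (0.90), *3632451O06Rik* (0.90), *Adrm1* (0.85) and *Tob2* (0.84). Within genotypes their r was 0.94, 0.94, 0.76, 0.80 and 0.64. Most like *Spry4* alone were *Tsc22d3* (0.90), *Tle1* (0.89) and *Hspa1b* (0.89), where *Tle1* had an r of 0.83 within genotypes and *Tsc22d3* and *Hspa1b* had 0.28 and 0.40.

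The other genes of the pathway were listed by role, 110 genes in 6 lists, of which 100 had values and 93 were tested. At an adjusted p of 0.05, limma called 0 of 93 (smallest adjusted p = 0.121) and edgeR 0. DESeq2 called 3 (*Cbl*, *Epha4* and *Maff*), beside 6.44% of all genes. Before adjustment, 17 of 93, or 18.3%, had a p of at most 0.05 in limma, beside 24.3% of all genes. Without WT replicate 2, 20 of 93 (21.5%) were called, beside 27.6% of all genes tested.

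Upstream of RAS, the ligands and receptors had medians of opposite sign. Of 10 ligand genes tested, 4 were higher and 6 lower, with a median log2 fold change of -0.33. *Areg*, which encodes the EGF receptor ligand amphiregulin, averaged 225 ± 54.6 normalized counts in WT (SD, n = 5) and 159 ± 67.8 in mutant libraries (SD, n = 7), a log2 fold change of -0.59 (adjusted p = 0.223 from limma). *Fgf9*, a fibroblast growth factor, had 111 ± 53.3 and 70.0 ± 11.4 (-0.54), and *Btc*, encoding betacellulin, 41.8 ± 17.9 and 59.5 ± 16.5 (0.56), both with an adjusted p of 0.223. *Tgfa*, the ligand with the highest mean over all 12 libraries, though not over the WT libraries alone, had a log2 fold change of -0.28 (adjusted p = 0.471). Of 9 receptor genes, 8 were higher and 1 lower, with a median of 0.23. *Egfr* had 264 ± 78.4 and 392 ± 93.5 normalized counts, a log2 fold change of 0.59 (adjusted p = 0.128 from limma), and *Igf1r*, the receptor of insulin-like growth factor 1, 47.1 ± 33.6 and 86.4 ± 14.3, a log2 fold change of 1.17 (adjusted p = 0.127). The EGF receptor relatives *Erbb2* and *Erbb3*, the latter with the highest mean normalized count of the receptors, had 0.26 and 0.19 (adjusted p = 0.224 and 0.503). Without WT replicate 2 limma called *Egfr* (0.73) and *Igf1r* (1.49), 2 of the 9 receptor genes, beside 27.6% of all genes.

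The RAS, RAF, MEK and ERK genes themselves centred on a log2 fold change of -0.05 (median), with 7 higher and 12 lower of 19. *Hras* and *Nras*, which encode RAS proteins, had -0.37 (adjusted p = 0.127 from limma) and -0.24 (adjusted p = 0.160). *Mapk3*, which encodes ERK1 and had the highest mean of the list, averaged 6365 ± 1569 normalized counts in WT (SD, n = 5) and 4675 ± 722 in mutant libraries (SD, n = 7) (-0.42, adjusted p = 0.159). Without WT replicate 2, limma called 5 of the 19, all lower, these 3 among them, beside 27.6% of all genes (13.6% lower).

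Among 21 further genes, listed as inhibitors of the pathway or of related kinases, 9 were higher and 12 lower, with a median log2 fold change of -0.14. *Cbl*, encoding a ubiquitin ligase that marks activated EGF receptor for breakdown, averaged 239 ± 45.8 normalized counts in WT (SD, n = 5) and 389 ± 122 in mutant libraries (SD, n = 7) (0.66, adjusted p = 0.127 from limma). *Lrig1*, a receptor inhibitor that also marks crypt stem cells, had 688 ± 365 and 1060 ± 240 (0.74, adjusted p = 0.136). *Dusp3*, a small dual-specificity phosphatase, had a log2 fold change of -0.68 (adjusted p = 0.206), and *Socs4*, with the highest mean of the list, -0.14 (adjusted p = 0.603). *Cbl* and *Lrig1* were called without WT replicate 2, as was 1 further gene of the list, *Dusp8*, which was lower. These are 3 of 21, beside 27.6% of all genes.

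Downstream, 11 of 18 other ETS factor genes were higher and 7 lower, around a median log2 fold change of 0.07. *Etv6*, a repressor of the family, had 0.54 (adjusted p = 0.137 from limma) and *Etv3*, another repressor, -0.35 (adjusted p = 0.251). Both were called without WT replicate 2 (0.74 and -0.53), 2 of the 18, beside 27.6% of all genes. *Elf3*, an epithelial ETS factor with the highest mean of the list, averaged 5687 ± 1440 normalized counts in WT (SD, n = 5) and 4093 ± 797 in mutant libraries (SD, n = 7) (-0.47, adjusted p = 0.145).

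Of 16 further genes that ERK signaling induces, 3 were higher and 13 lower, with a median log2 fold change of -0.36. *Phlda1* averaged 993 ± 321 normalized counts in WT (SD, n = 5) and 521 ± 262 in mutant libraries (SD, n = 7), or -1.01 on the log2 scale (limma, standard error 0.31 and adjusted p = 0.122), with 6 of 7 mutant libraries below the lowest WT library. *Epha4*, an ephrin receptor, had 118 ± 44.4 and 61.3 ± 15.2 (-0.87, adjusted p = 0.121), and *Maff*, a small MAF transcription factor, -0.77 (adjusted p = 0.124). *Emp1*, with the highest mean of the list, had -0.56 (adjusted p = 0.267). The 4 genes of this list that belong with *Spry2*, *Spry4*, *Dusp4*, *Dusp6*, *Etv4* and *Etv5* to a transcript signature of ERK activity did not all lie on the same side. *Epha4*, *Phlda1* and *Epha2* (-0.33, adjusted p = 0.478 from limma) were lower, whereas *Ccnd1*, encoding cyclin D1, averaged 447 ± 342 normalized counts in WT (SD, n = 5) and 895 ± 548 in mutant libraries (SD, n = 7), a log2 fold change of 1.08 (adjusted p = 0.208). Without WT replicate 2 limma called 8 of the 16 induced genes, 7 lower and 1, *Ccnd1*, higher, beside 27.6% of all genes.

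**Figure D4:**
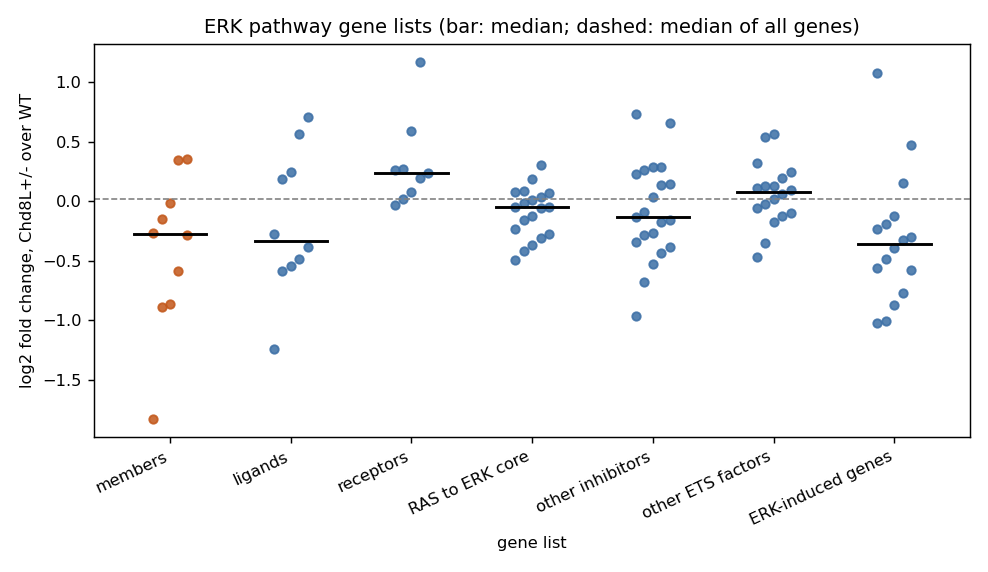
Log2 fold change, *Chd8L*+/- over WT (vertical axis), of the 10 genes in orange and of each tested gene of the 6 pathway lists in blue (horizontal axis, list); bars are medians and the dashed line is the median of all genes (0.01). The median is -0.36 in the ERK-induced genes and 0.23 in the receptors.

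Marker lists of cell types and states were set beside these genes, and their part in the differences was not tested. On all libraries limma called 0 genes in each cell type list. Over all genes, limma called 0.0234%, edgeR 0.039%, DESeq2 6.44% and limma with the letter block 3.52%. Limma called 27.6% of all genes without WT replicate 2, and 24.3% had an unadjusted p of at most 0.05 on all libraries. Lists not detailed below had median log2 fold changes of -0.35 (Paneth, 4 of 5 lower), -0.29 (goblet, 5 of 6 lower) and -0.26 (lymphocyte, 9 of 10 lower). The others had -0.04 (enteroendocrine, 4 of 8 lower), 0.14 (endothelial, 1 of 3 lower) and 0.75 (glia and neuron, 1 gene tested). DESeq2 called 2 goblet genes and 1 enteroendocrine gene, all lower. The 12 genes of dividing cells were all higher in *Chd8L*+/- libraries, by a median of 0.98 on the log2 scale, with summed normalized counts of 8473 to 15808 against 3325 to 15162 in WT, and they include *Mki67* (1.45), *Top2a* (1.26) and *Pcna* (0.14). On all libraries limma, edgeR and DESeq2 called 0 of the 12 (adjusted p = 0.121 for *Mki67* from limma), and 11 had an unadjusted p of at most 0.05. Without WT replicate 2 limma called 11 of the 12, all higher, with a median of 1.36, and the WT sums of 3325 to 7825 lay below every mutant sum. The letter block gave 2 calls. The 8 tuft cell genes were all lower, with a median of -1.87 and sums of 1405 to 10524 against 2572 to 24231, among them *Trpm5* (-1.65) and *Avil* (-1.78), and only *Il25* of the 8 was listed at 0 in a library. On all libraries limma and edgeR called 0 of the 8 (adjusted p = 0.130 for *Trpm5* from limma), all 8 had an unadjusted p of at most 0.05, and DESeq2 called 7. Limma also called 7 with the letter block and 7 without WT replicate 2, where the median was -2.38. WT replicate 2 was set apart by the sums of these dividing cell and tuft cell genes. Their values without it therefore follow in part from that choice and give no separate check.

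Of 10 enterocyte genes 1 was higher and 9 were lower, with a median log2 fold change of -0.42, or -0.60 without WT replicate 2. Limma and edgeR called 0 of the 10 on all libraries, and 2 had an unadjusted p of at most 0.05 (24.3% of all genes). DESeq2 called 2 (6.44% of all genes), and limma called 2 without WT replicate 2 (27.6%) and 1 with the letter block (3.52%). Their summed normalized counts were 402264 in WT replicate 2, 804877 to 903863 in the other WT libraries and 334362 to 795634 in *Chd8L*+/- libraries. The 5 libraries with the lowest sums, of 523191 or less, were WT replicate 2 and *Chd8L*+/- replicates 3 to 6, and the same 5 held the lowest *Dusp6* counts, from 831 to 1281, while the other 7 had sums of at least 747509 and *Dusp6* counts of at least 1894. This split was picked out after the values were seen, for *Dusp6* alone, and was not tested. Of 10 stem cell genes 9 were higher and 1 was lower, with a median of 0.43 (0.59 without WT replicate 2) and sums of 12381 to 22867 against 7306 to 19337 in WT, or 7306 to 13758 without that library. Limma, edgeR and DESeq2 called 0 of them on all libraries, and 2 had an unadjusted p of at most 0.05 (24.3% of all genes). Limma called 3 without WT replicate 2 (27.6% of all genes), 2 higher and 1 lower.

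Stromal genes were scarce, with sums of 60 to 465 in WT and 76 to 2544 in *Chd8L*+/- libraries, and the median difference of 8 tested genes was 1.90 on the log2 scale, or 2.48 without WT replicate 2, whose absence left WT sums of 60 to 110. Examples are *Dcn* (2.03), *Myh11* (2.04) and *Col3a1* (2.77). *Col1a2*, *Col3a1*, *Lum* and *Pdgfra* were listed at 0 in at least 1 library. The 9 myeloid genes were all higher, with a median of 0.49 and sums of 1928 to 4095 against 1314 to 3438 in WT. With WT replicate 2 left out the median was 0.74 and the WT sums of 1314 to 1686 lay below every mutant sum. The library left out held the highest WT sum, so this gives no separate check. Of 10 epithelial markers 3 were higher and 7 lower, with a median of -0.17, or -0.32 without WT replicate 2. The 3 with the highest means were close to that (*Krt8* -0.20, *Vil1* -0.15, *Krt20* -0.33), whereas *Krt18* had -1.08 (adjusted p = 0.121 from limma and 0.00894 from DESeq2) and *Krt19* 0.47 (adjusted p = 0.211 from limma). Genes known to respond to tissue dissociation, 5 of which also stand in the pathway lists, had sums of 36872 to 49630 in WT and 29148 to 39204 in *Chd8L*+/- libraries. Of 19 tested, 17 were lower, with a median of -0.37, or -0.57 without WT replicate 2. On all libraries limma called 2 of the 19, both lower, and these are 2 of the 3 genes it called among all genes (0.0234%). The groups did not overlap in 3 of the 19, beside 0.515% of all genes. Without WT replicate 2 limma called 7, beside 27.6% of all genes.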

How the data were processed

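Gut epithelial poly(A) RNA was read as single-end reads. Per the paper's methods, the authors mapped them to mm10 with Tophat2, and the processing notes name DESeq2. The deposited signal per gene and library is a read count that the authors scaled with 1 size factor per library. Which program and annotation counted the reads, and whether strand was used, is not given in the sources used here. Library names matched all 12 columns to mice, leaving 0 columns of other samples. Reads were recovered for 100% of the values, within 0.000147 of whole numbers. For WT replicates 3 and 4, 1 read is worth so nearly 1 that a general check of steps could not be applied, and they were recovered in the same way without it.

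Genotypes were compared with limma 3.58.1 in R 4.3.3 (eBayes with trend, no block) on log2(value + 1), over the 12808 genes that averaged at least 10, two-sided, with Benjamini-Hochberg adjustment and a threshold of 0.05. Recovered reads were also tested with edgeR 4.0.16 (12814 genes) and DESeq2 1.42.0 (12584 genes). Intervals are 95%. The log2(value + 1) scale understates the differences of genes with few reads. Gene positions and exon lengths come from GENCODE M21 on GRCm38, which matched 98.8% of tested genes and may differ from the annotation the authors used. The steps were tested on simulated data.

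The 10 genes and all lists were chosen with earlier results of these data known. The other genes named are *Chd8*, the 3 genes of smallest p and the gene of highest mean in each pathway list, the 5 genes most like the mean of the 10 and the 3 most like *Spry4*, and the 3 markers of highest mean for epithelial cells and for lists with a median log2 fold change over 0.5 in size. Some genes that this choice would name are not reported here. *Dusp8*, *Krt18*, *Krt19* and the markers listed at 0 were named after their values were seen. Alternatives were other pseudocounts, filters, normalization and tools, blocks, and each library left out in turn. Names that a spreadsheet had turned into dates are not used here.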

Additional observations from a re-analysis of the deposited data

Results flagged for a closer look

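In the WT libraries, *Spry4* had a normalized count of 40.0 in replicate 1, where the other 4 lay between 21.3 and 25.4, which sets replicate 1 apart from its group by Dixon's criterion (gap over range 0.726 on the log2(normalized count + 1) scale). Of 20 groups examined, 10 genes in 2 genotypes, 1 was set apart in this way, and chance alone gives about 1 in 20. As replicate 1 is the highest WT library, leaving it out could not make the groups of *Spry4* overlap.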

How the results depend on the processing

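The number of genes called of all genes tested, 3 in limma, was 811 in DESeq2, 5 in edgeR, 451 with the library letter as a block, and 0 with the number that ends the library name as a block. With each library left out in turn it ran from 0 to 3534, the highest without WT replicate 2 and the next, 8, without *Chd8L*+/- replicate 6. Of the 10 feedback and ETS genes, limma called 0, DESeq2 2, edgeR 1, the letter block 1 and the number block 0, and leaving out libraries gave 0 to 4. DESeq2, which called 6.44% of all genes, called 1 further inhibitor, 2 induced genes and 1 of the 4 signature genes. The letter block, with 3.52% of all genes called, gave 1 induced gene, *Ccnd1*, which is also 1 of the signature genes. Leaving out libraries gave 0 to 2 receptors, 0 to 5 core genes, 0 to 3 inhibitors, 0 to 2 ETS factors, 0 to 8 induced genes and 0 to 3 signature genes. In each of these counts the highest came without WT replicate 2, where 27.6% of all genes were called. The causes were not tested. Replicate numbers do not pair the mice (correlations of deviations from -0.34 to 0.19, with 1 of 5 WT libraries most like its own number), and the replicate block gave 0 genes and 0 of the 10.

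The log2 fold change of *Spry4* ran from -1.95 to -1.41, the latter with a pseudocount of 5, that of *Spry1* from -1.02 to -0.64 and that of *Dusp6* from -1.14 to -0.67. *Spred2* ran from -0.09 to 0.10, and the other 9 of the 10 genes kept their sign in every alternative that tested them. With at least 10 in every library *Spry4* was not tested. The count of genes whose groups do not overlap without WT replicate 2 was added after seeing the data. Depth limits *Spry4* most, with as few as 3 reads in a library.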
